A study of Homo sapiens with 6 samples.

Results

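Heat shock factor 1 (HSF1) and 9 chaperone genes, HSPA1A, HSPA1B, HSPA8, DNAJB1, HSPH1, HSP90AA1, HSPB1, HSPD1 and HSPE1, were described in T24 cells with a control hairpin and with knockdown of UBC9. They were chosen by gene symbol alone, and all 10 were found among the 58174 genes listed in each sample. T24 cells are an established line from a human bladder cancer. Cells were infected with a lentivirus carrying either 1 shRNA against UBC9 (shRNA-UBC9) or a scrambled control shRNA (shRNA-NC), and both kinds of cells were then selected with puromycin. PolyA RNA was sequenced from 3 samples of each group. Because a single hairpin was used, an effect of the hairpin itself and an effect of losing UBC9 cannot be told apart, and nothing in the labels says whether the 3 samples of a group came from separate cultures, so the p-values measure the spread between these samples, which may be technical.

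HSF1 is the main transcription factor of the heat shock response. In unstressed cells it is held inactive by the chaperones it controls. When unfolded proteins occupy those chaperones, HSF1 forms trimers, enters the nucleus and binds heat shock elements, which are inverted repeats of the unit GAA. Its target genes encode the HSP70 proteins, their J-domain and nucleotide exchange partners, HSP90, small heat shock proteins and the mitochondrial chaperonin. HSF1 is itself modified by SUMO, the small protein that UBC9 attaches to its substrates.

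Of the 10 genes, 2 (20%) were lower in shRNA-UBC9, DNAJB1 and HSPB1, none was higher, and 8 did not pass the test (limma, adjusted p below 0.05). No gene passed the cutoff that defined DEGs in the study, an absolute log2 fold change (log2FC, shRNA-UBC9 over shRNA-NC) above 1 with an adjusted p below 0.05, and 2 had an unadjusted p below 0.05. Over all 12428 tested genes 36.8% were called, 18.0% lower and 18.8% higher, so the share among the 10 genes did not exceed the background. DEGs made up 7.89% of the tested genes, 5.2% higher and 2.7% lower, and 47.0% had an unadjusted p below 0.05. Without shRNA-NC replicate 3 none of the 10 genes was called, and without shRNA-NC replicate 1 the call was HSF1 alone. Over all tested genes these fits called 24.4% and 28.6%, in place of 36.8%. The median log2FC was -0.13 over the 10 genes and 0.00 over all tested genes. In absolute size the medians were 0.22 and 0.27. For all 10 genes the 95% interval of the log2FC lay between -1 and 1, with the lowest bound at -0.65 (HSP90AA1) and the highest at 0.51 (HSPA1B). RPKM gives a gene's share of the RNA, so in these bulk samples fewer cells of a kind and less RNA per cell cannot be told apart.

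The libraries were of similar depth. Reading the worth of 1 read from the lowest values gave about 28200000 to 36100000 reads per sample (whether 1 read or 1 read pair was counted is not stated), with the shallowest in shRNA-UBC9 (replicate 3) and the next in shRNA-NC (replicate 1). At this depth the least covered value among the 10 genes rested on 404 reads per kilobase. Mitochondrially encoded RNA made up 8.28% to 8.76% of the summed RPKM in shRNA-NC and 6.83% to 7.16% in shRNA-UBC9, so the groups did not overlap. Of 11 epithelial and urothelial markers, 6 reached 1 RPKM. Their summed level was 943 to 1116 RPKM in shRNA-NC and 430.2 to 568 RPKM in shRNA-UBC9. The keratins KRT7, KRT8, KRT18 and KRT19 made up most of it, KRT5 was listed at 0 in all 6 samples, and CDH1 and TP63 did not exceed 0.0045 RPKM. These 4 keratins and GATA3 were called lower. EPCAM went the other way, with 0.412 to 0.986 RPKM in shRNA-NC and 0.732 to 2.51 RPKM in shRNA-UBC9. Its groups overlapped and it did not pass the test (log2FC 0.996, limma adjusted p = 0.0984). Mesenchymal markers summed to 948 to 1257 RPKM in shRNA-NC and 618 to 1356 RPKM in shRNA-UBC9. Among the low ones COL1A1 was called higher (log2FC 0.95, limma adjusted p = 0.0276) and PDGFRB lower (log2FC -1.48, limma adjusted p = 0.00325). None of 5 leukocyte markers reached 1 RPKM, with sums of 0.657 to 1.41 RPKM in shRNA-NC and 0.752 to 1.74 RPKM in shRNA-UBC9. The 4 endothelial markers summed to 2.64 to 3.26 RPKM in shRNA-NC and 0.338 to 1.07 RPKM in shRNA-UBC9, mostly from CDH5. The part of these shifts in the results on chaperones was not tested.

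The sites through which HSF1 is known to act can be read in the promoters. RefSeq promoter windows (GRCh38.p14), from 250 bases before to 50 bases after a gene start, were found for 9 of the 10 genes, all but HSF1. They were searched on both strands for alternating GAA and TTC units that begin 5 bases apart. Only units that match in every letter and follow each other without a gap were counted. A pair of units is written GAANNTTC or TTCNNGAA, and these 2 spellings overlap in any longer run. At least 1 window of 7 of the 9 genes held a run of 2 or more units, against 16.2% of 27305 genes, and 3 genes held a run of 3 or more, against 0.608%. No such run was found for HSPH1 and HSPE1 in the windows of their RefSeq starts. The run with the most units before the start is shown for the 7 genes, with the units and the bases between them in capitals, to show how the genes that are compared here differ in these sites.
HSPA1A: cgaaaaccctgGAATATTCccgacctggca
HSPA1B: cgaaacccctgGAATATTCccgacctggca
HSPA8: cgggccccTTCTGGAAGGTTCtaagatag
DNAJB1: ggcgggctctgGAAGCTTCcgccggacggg
HSP90AA1: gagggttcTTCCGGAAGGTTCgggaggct
HSPB1: ccttaacgagaGAAGGTTCcagatgagggc
HSPD1: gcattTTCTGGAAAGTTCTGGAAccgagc

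The stretches lie at chr6:31815426-31815455 (HSPA1A, plus strand), chr6:31827622-31827651 (HSPA1B, plus), chr11:123062171-123062199 (HSPA8, minus), chr19:14518426-14518455 (DNAJB1, minus), chr14:102087112-102087140 (HSP90AA1, minus), chr7:76302480-76302509 (HSPB1, plus) and chr2:197500062-197500090 (HSPD1, minus). HSPA8 and HSP90AA1 had 3 units each, which began 55 and 88 bases before the start. HSPD1 had 4, a run found in 0.0342% of all windows. It began 245 bases before a start of HSPD1. HSPE1 is its neighbour on the opposite strand. The printed stretch ended 289 bases before the RefSeq start used for HSPE1, outside that window, but 50 bases before the GENCODE 44 start of HSPE1, so whether HSPE1 is counted as holding a run depends on the start taken. HSPA1A, HSPA1B, DNAJB1 and HSPB1 had unbroken runs of 2 units. In HSPA1A and HSPA1B a further gaa, in lower case, stands in step before the marked run, past an imperfect unit. It was not counted, so these counts do not give the length of a site that allows mismatches. The genes called lower, DNAJB1 and HSPB1, were thus among those with 2 units, as were HSPA1A and HSPA1B, which were not called. A match of letters is a description of the window and not a measured binding site.

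HSF1 itself was expressed at a modest level. It had 14.7, 11.9 and 11.9 RPKM in shRNA-NC replicates 1, 2 and 3 and 14.3, 14.9 and 15.1 RPKM in shRNA-UBC9. The groups overlapped because shRNA-NC replicate 1 lay above shRNA-UBC9 replicate 1. Its log2FC was 0.20 (SE 0.10, 95% interval -0.03 to 0.44, limma adjusted p = 0.156), that is, between 0.978 and 1.36 times the control. Without shRNA-NC replicate 1 it was 0.30 and passed the test (limma adjusted p = 0.0424), while under the 14 alternatives tried the adjusted p ranged from 0.0424 to 0.389. HSF1 shares exonic bases with DGAT1 on the opposite strand, and the kit named does not mark the strand, so reads there cannot be assigned. DGAT1 was lower than HSF1, at 5.35 to 6.97 RPKM.

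**Figure D1:**
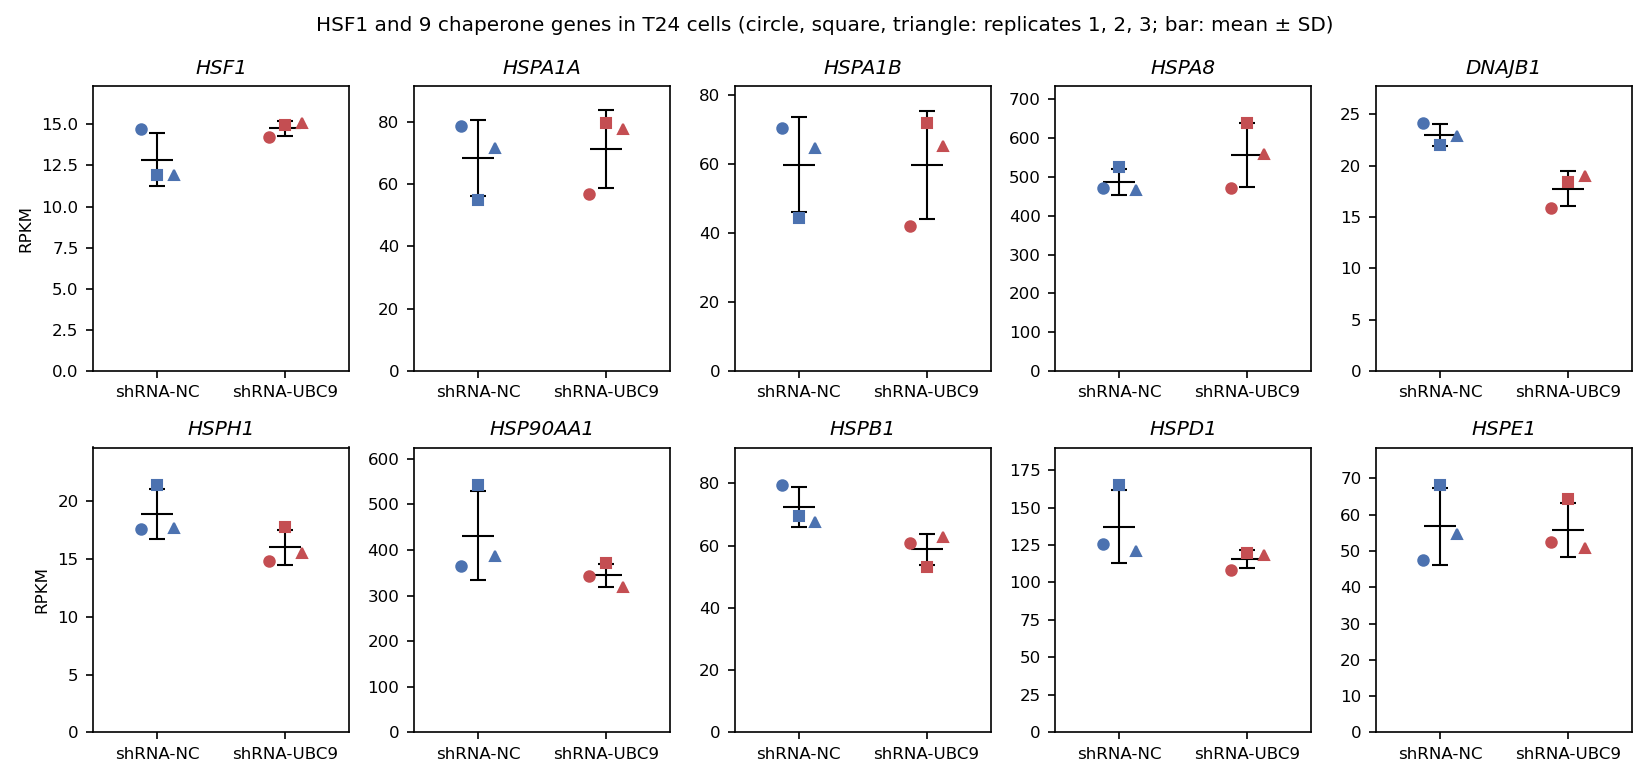
RPKM (vertical axis, from 0) of HSF1 and the 9 chaperone genes in each of 3 shRNA-NC samples (blue) and 3 shRNA-UBC9 samples (red), with circles, squares and triangles for replicates 1, 2 and 3 and bars for the mean ± SD. The groups are apart for DNAJB1, HSPB1 and HSPD1, all lower in shRNA-UBC9, and overlap for the other 7 genes.

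HSPA1A and HSPA1B encode the heat-inducible HSP70, and are near-identical copies on the same chromosome. HSPA1A had 78.6, 54.7 and 71.6 RPKM in shRNA-NC and 56.8, 79.5 and 77.6 RPKM in shRNA-UBC9. HSPA1B had 70.5, 44.3 and 64.4 RPKM in shRNA-NC and 42.0, 71.8 and 65.2 RPKM in shRNA-UBC9. Both genes were lowest in the same pair of libraries, replicate 2 of shRNA-NC and replicate 1 of shRNA-UBC9, and the groups overlapped. This gave a log2FC of 0.06 for HSPA1A (95% interval -0.33 to 0.45, limma adjusted p = 0.803). For HSPA1B it was -0.01 (95% interval -0.54 to 0.51, limma adjusted p = 0.975), the widest interval of the 10 genes.

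How the authors divided reads that fit both copies is not stated, so the levels of the 2 copies are uncertain and their sum is also given. Summed, they had 128 ± 26.0 RPKM in shRNA-NC and 131 ± 28.2 RPKM in shRNA-UBC9 (mean ± SD, n = 3), a log2 difference of 0.03 (exact permutation test, two-sided, p = 0.8). The ratio of HSPA1A to HSPA1B lay between 1.11 and 1.35 in the 6 samples. The log2FC of HSPA1A changed its sign under quantile normalization and without shRNA-NC replicate 2, shRNA-UBC9 replicate 2 or shRNA-UBC9 replicate 3, and that of HSPA1B did so without shRNA-NC replicate 1, shRNA-NC replicate 3 or shRNA-UBC9 replicate 1.

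HSPA8 encodes HSC70, the HSP70 protein that cells make without stress, and was the most abundant of the 10 mRNAs per length in both groups. It had 470.4, 525 and 466 RPKM in shRNA-NC and 472, 638 and 559 RPKM in shRNA-UBC9. The groups overlapped, and replicates 2 and 3 of shRNA-UBC9 were the highest samples. The fitted log2FC was 0.18 (SE 0.12, 95% interval -0.09 to 0.46, limma adjusted p = 0.266). It was 0.08 without shRNA-UBC9 replicate 2 and 0.30 without shRNA-UBC9 replicate 1. HSPA8 exceeded HSPA1A and HSPA1B together 3.15-fold to 5.30-fold in shRNA-NC and 3.91-fold to 4.77-fold in shRNA-UBC9, and these ranges overlapped. The 17 processed copies of HSPA8 listed in the files took at most 0.0511% of the RPKM of the family.

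DNAJB1 encodes HSP40, the J-domain protein that delivers unfolded clients to HSP70 and stimulates its ATPase. In GENCODE 44 it lies at chr19:14514769-14560391 on the minus strand. Its log2FC was the largest of the 10 genes in size, with 24.1, 22.0 and 22.8 RPKM in shRNA-NC and 15.8, 18.4 and 19.0 RPKM in shRNA-UBC9. Every shRNA-UBC9 sample was below every shRNA-NC sample. The mean fell by 22.8%, from 23.0 ± 1.07 to 17.8 ± 1.69 RPKM (mean ± SD, n = 3), and the log2FC was -0.38 (SE 0.10, 95% interval -0.60 to -0.16, limma adjusted p = 0.0173). The call held in 11 of 14 alternatives. The losses included those without shRNA-NC replicate 1 (limma, adjusted p = 0.0585) and without shRNA-NC replicate 3 (limma, adjusted p = 0.0589). DNAJB1 shares exonic bases with TECR on the opposite strand, which had 20.7 to 26.1 RPKM in shRNA-NC and 17.0 to 23.1 RPKM in shRNA-UBC9, with a log2FC of -0.18 (limma adjusted p = 0.338).

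HSPH1 encodes HSP110, which exchanges the nucleotide of HSP70. It had 17.6, 21.4 and 17.7 RPKM in shRNA-NC and 14.8, 17.7 and 15.5 RPKM in shRNA-UBC9. Replicate 2 of shRNA-NC was the highest, and replicate 2 of shRNA-UBC9 reached the level of the other two shRNA-NC samples. In the fit the log2FC was -0.24 (SE 0.11, 95% interval -0.49 to 0.02, limma adjusted p = 0.134), and it was -0.14 without shRNA-NC replicate 2.

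Both HSP70 partners were also set against HSPA8 within each sample. The ratio of DNAJB1 to HSPA8 was 0.0513, 0.0419 and 0.0490 in shRNA-NC and 0.0336, 0.0288 and 0.0340 in shRNA-UBC9, a log2 difference of -0.56. That of HSPH1 to HSPA8 was 0.0374, 0.0408 and 0.0379 in shRNA-NC and 0.0314, 0.0278 and 0.0277 in shRNA-UBC9, a log2 difference of -0.42. Neither ratio overlapped between the groups. As single genes, 51.1% of all tested genes did not overlap either, and this share was not computed for ratios. The exact permutation test (two-sided) gave p = 0.1 for each, the smallest that 3 samples against 3 allow, and 0.2 after Benjamini-Hochberg adjustment over 6 ratios. Without any 1 sample the log2 difference stayed between -0.65 and -0.48 for DNAJB1 and between -0.48 and -0.38 for HSPH1.

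**Figure D2:**
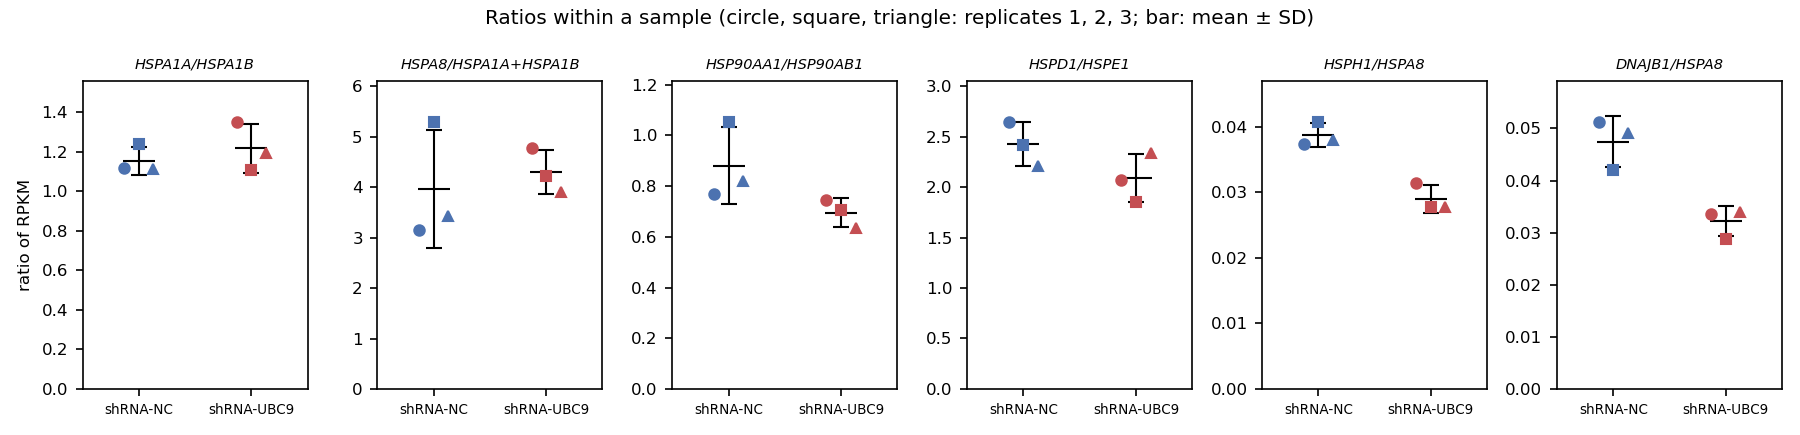
Ratio of RPKM (vertical axis, from 0) of 6 gene pairs within each sample, for 3 shRNA-NC samples (blue) and 3 shRNA-UBC9 samples (red), with circles, squares and triangles for replicates 1, 2 and 3 and bars for the mean ± SD. The ratios HSP90AA1/HSP90AB1, HSPH1/HSPA8 and DNAJB1/HSPA8 were lower in each shRNA-UBC9 sample than in any shRNA-NC sample, and the other 3 ratios overlapped. Of single tested genes, 51.1% did not overlap between the groups.

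HSP90AA1 encodes the inducible cytosolic HSP90 and was the second most abundant mRNA of the 10. It had 365, 543 and 386 RPKM in shRNA-NC and 342, 371 and 320 RPKM in shRNA-UBC9. One library, shRNA-NC replicate 2, stood well above the other 5, and shRNA-UBC9 replicate 2 lay above shRNA-NC replicate 1. The log2FC was -0.31 (SE 0.15, 95% interval -0.65 to 0.04, limma adjusted p = 0.144), and it was -0.13 without shRNA-NC replicate 2. Its constitutive paralogue HSP90AB1 had 487 ± 24.3 RPKM in shRNA-NC and 496 ± 33.5 RPKM in shRNA-UBC9 (mean ± SD, n = 3), with a log2FC of 0.03 (limma adjusted p = 0.843) that changed sign under median scaling. The ratio of HSP90AA1 to HSP90AB1 was 0.769, 1.05 and 0.820 in shRNA-NC and 0.745, 0.708 and 0.633 in shRNA-UBC9, which did not overlap (log2 difference -0.33, exact permutation test, two-sided, p = 0.1, and 0.2 after adjustment over 6 ratios). Without shRNA-NC replicate 2 that difference was -0.19. HSP90AA1 shares exonic bases with WDR20 on the opposite strand, which had at most 4.09 RPKM.

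HSPB1 encodes HSP27, a small heat shock protein that binds unfolded proteins without ATP, and lies at chr7:76302673-76304295 on the plus strand. It had 79.6, 69.7 and 67.7 RPKM in shRNA-NC and 60.7, 53.3 and 62.7 RPKM in shRNA-UBC9. Every shRNA-UBC9 sample was below every shRNA-NC sample, and the mean fell by 18.6%. Its log2FC was -0.30 (SE 0.10, 95% interval -0.53 to -0.07, limma adjusted p = 0.0490), just inside the threshold. The call held in 5 of 14 alternatives. Leaving out any 1 of the 6 samples lost it (limma, adjusted p from 0.0530 to 0.169), as did dropping the filter on low genes (adjusted p = 0.0870) or the intensity trend (adjusted p = 0.0735). Of the 9 other genes in the small heat shock list, only HSPB11 was high enough to be tested, with a log2FC of 0.10 (limma adjusted p = 0.488). It is also known as IFT25, a gene of intraflagellar transport, so it is no measure of genes like HSPB1. CRYAB, a stress-inducible small heat shock gene, did not exceed 0.0748 RPKM.

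HSPD1 (HSP60) and HSPE1 (HSP10) encode the chaperonin and co-chaperonin of the mitochondrial matrix, and lie head to head with exonic bases shared between the strands. HSPD1 had 126, 165 and 121 RPKM in shRNA-NC and 109, 119 and 118 RPKM in shRNA-UBC9. The groups did not overlap, though the gap was narrow, since shRNA-NC replicate 3 was only just above shRNA-UBC9 replicate 2. This gave a log2FC of -0.24 (SE 0.13, 95% interval -0.52 to 0.05, limma adjusted p = 0.177), and -0.09 without shRNA-NC replicate 2. HSPE1 had 47.4, 68.2 and 54.6 RPKM in shRNA-NC and 52.4, 64.4 and 50.7 RPKM in shRNA-UBC9, with a log2FC of -0.02 (95% interval -0.36 to 0.32, limma adjusted p = 0.948). Its sign changed without shRNA-NC replicate 2, shRNA-UBC9 replicate 1 or shRNA-UBC9 replicate 3. The ratio of HSPD1 to HSPE1 was 2.65, 2.42 and 2.21 in shRNA-NC and 2.07, 1.85 and 2.33 in shRNA-UBC9, which overlapped (log2 difference -0.22, exact permutation test, two-sided, p = 0.2). The read-through gene HSPE1-MOB4, which shares exons with HSPE1, was counted apart at 7.08 to 9.63 RPKM in shRNA-NC and 8.96 to 14.9 RPKM in shRNA-UBC9, so the level of HSPE1 depends on how shared reads were divided. It was called higher (limma, log2FC 0.59, adjusted p = 0.0436).

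**Figure D3:**
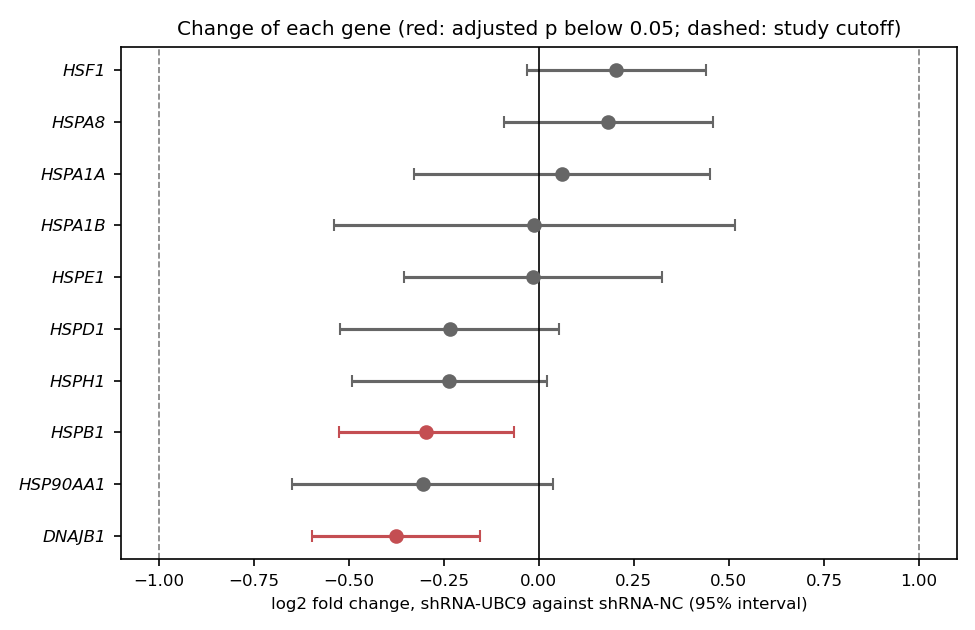
Log2 fold change of shRNA-UBC9 against shRNA-NC (horizontal axis) for HSF1 and the 9 chaperone genes, with 95% intervals from limma; red marks an adjusted p below 0.05 and dashed lines a log2 fold change of -1 and 1. DNAJB1 (-0.38) and HSPB1 (-0.30) are the genes in red, and all 10 intervals lie between the dashed lines.

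In all, 3 of the 10 genes (DNAJB1, HSPB1 and HSPD1) did not overlap between the groups and all 3 were lower in shRNA-UBC9. Over all tested genes 25.4% were apart in this direction, 25.7% in the other and 51.1% in either. The summed RPKM of the 9 chaperone genes was 1279, 1514 and 1272 in shRNA-NC and 1165, 1434 and 1287 in shRNA-UBC9. It made up 0.551% to 0.655% of all RPKM in shRNA-NC and 0.504% to 0.600% in shRNA-UBC9, so the groups overlapped.

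The order of levels was much alike in the groups. In shRNA-NC it ran from HSPA8 (487 RPKM on average) and HSP90AA1 (432 RPKM) through HSPD1 (137 RPKM) to HSPB1, HSPA1A, HSPA1B and HSPE1 (72.3 to 56.7 RPKM), then DNAJB1 (23.0 RPKM), HSPH1 (18.9 RPKM) and HSF1 (12.9 RPKM). HSPA8 and HSP90AA1 overlapped there, as did each neighbouring pair among HSPB1, HSPA1A, HSPA1B and HSPE1. In shRNA-UBC9, HSPA8 (556 RPKM) exceeded HSP90AA1 (344 RPKM) with no overlap, while DNAJB1 (17.8 RPKM), HSPH1 (16.0 RPKM) and HSF1 (14.8 RPKM) came to overlap with their neighbours. HSPB1 (58.9 RPKM) went from 4th to 6th place by its mean, between HSPA1B (59.6 RPKM) and HSPE1 (55.8 RPKM). It overlapped with both, so these places are not distinct.

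Within the groups the genes did not vary as 1 block. Relative to the mean of the 6 samples on the log2 scale, shRNA-NC replicate 2 was the highest sample for HSP90AA1 (0.51), HSPD1 (0.40), HSPH1 (0.30) and HSPE1 (0.29), and it was the lowest for HSPA1A (-0.33) and HSF1 (-0.20). In shRNA-UBC9 replicate 1, HSPA1B (-0.47), DNAJB1 (-0.35), HSPH1 (-0.23) and HSPD1 (-0.20) were at their lowest. HSPA8 was highest in shRNA-UBC9 replicate 2 (0.30), which was also the highest sample for HSPA1A and HSPA1B. The cause of these differences between samples of 1 group was not tested.

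**Figure D4:**
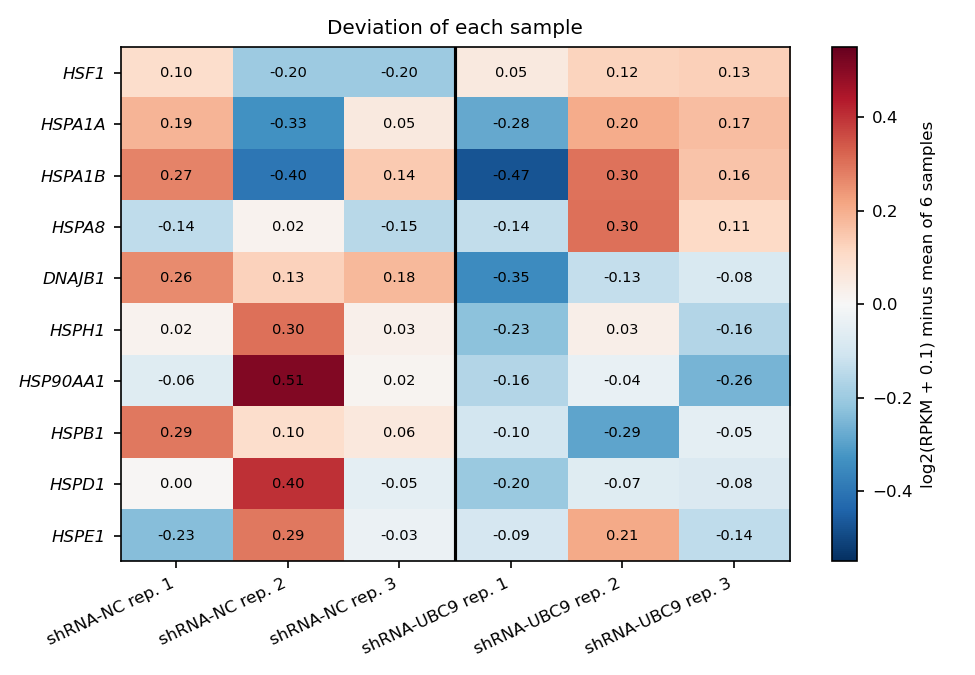
Log2(RPKM + 0.1) of each gene (rows) in each of the 6 samples (columns) minus its mean over the 6 samples, printed in each cell and coloured from blue (below the mean) to red (above it), with a line between shRNA-NC and shRNA-UBC9. DNAJB1 and HSPB1 are above the mean in all 3 shRNA-NC samples and below it in all 3 shRNA-UBC9 samples, while HSPA1A and HSPA1B are low in 1 library of each group.

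The mean profile of the 9 chaperone genes over the 6 samples, from -0.22 in shRNA-UBC9 replicate 1 to 0.11 in shRNA-NC replicate 2 on the log2 scale, was most like those of SLC35G1 (Pearson r = 0.998), FTSJ3 (0.995), FAM86C1 (0.992), TRAPPC2L (0.991) and DHDDS (0.988). These are the highest of all tested genes and serve as a description over 6 samples. None of these 5 genes was called between the groups (adjusted p from 0.142 to 0.429, limma).

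The wider chaperone network was covered by 102 genes in 8 lists, of which 88 were tested. There were 17 genes called higher, 7 called lower and 64 that did not pass the test, so 27.3% were called, against 36.8% of all tested genes. Their median log2FC was 0.07. Without shRNA-NC replicate 3 the count of called genes was 12 in place of 24, and that of genes called higher was 7 in place of 17. Over all tested genes that fit called 24.4%, with 1633 genes higher in place of 2339. Without shRNA-UBC9 replicate 2 the count called higher was 10. That fit called 26.1% of all tested genes, with 1657 higher. These counts were not split by list. Of the 4 tested genes among the other heat shock factors and their partners, 1 changed. HSF2, the paralogue of HSF1 that forms mixed trimers with it, fell from 5.33 ± 0.393 RPKM to 3.53 ± 0.223 RPKM (mean ± SD, n = 3). Its values were 4.90, 5.43 and 5.67 RPKM in shRNA-NC and 3.32, 3.76 and 3.53 RPKM in shRNA-UBC9, with no overlap, a log2FC of -0.58 (SE 0.10, limma adjusted p = 0.00305). HSF4 had a log2FC of -0.36 (limma adjusted p = 0.201), which passed only without shRNA-NC replicate 2 (-0.56, limma adjusted p = 0.0367). For HSBP1, which binds the trimerization domain of HSF1, it was 0.02 (limma adjusted p = 0.861).

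Among the other HSP70 and HSP110 genes, 2 of 8 tested were lower and none was higher (25% called, against 36.8% of all tested genes). The list median was 0.18. HSPA4L, an HSP110 relative, fell from 2.89 ± 0.803 to 1.38 ± 0.115 RPKM (mean ± SD, n = 3; log2FC -0.98, limma adjusted p = 0.00465). HYOU1, the HSP110 relative of the endoplasmic reticulum, fell from 33.8 ± 2.87 to 17.6 ± 2.62 RPKM (mean ± SD, n = 3; log2FC -0.95, limma adjusted p = 0.000933). Under the alternatives the log2FC ranged from -1.11 to -0.69 for HSPA4L and from -1.05 to -0.83 for HYOU1. Both thus passed the DEG cutoff in some settings, though not in the reported fit. The HSP70 of the endoplasmic reticulum, HSPA5, had 166 to 217 RPKM in shRNA-NC and 209 to 239 RPKM in shRNA-UBC9, which overlapped (log2FC 0.31, limma adjusted p = 0.0742).

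Of the other J-domain co-chaperones 8 of 17 were higher (47.1%, against 18.8% of all tested genes) and none was lower, with a median of 0.31. DNAJB9, a J-domain protein of the endoplasmic reticulum, had 1.59, 2.12 and 1.76 RPKM in shRNA-NC and 6.00, 4.40 and 3.35 RPKM in shRNA-UBC9. It was the only DEG of this list, with a log2FC of 1.25 (SE 0.20, limma adjusted p = 0.00250), with a range of 0.96 to 1.45 under the alternatives, so not always past the cutoff. DNAJA2, a cytosolic partner of HSP70, rose from 18.9 ± 1.17 to 26.4 ± 1.66 RPKM (mean ± SD, n = 3; log2FC 0.48, limma adjusted p = 0.00445). J-domain genes placed elsewhere in this report were not counted among the 17. Of these, DNAJB1 (log2FC -0.38, limma adjusted p = 0.0173) and HSCB (log2FC -0.33, limma adjusted p = 0.0360) were called lower. DNAJC19 (log2FC -0.06, limma adjusted p = 0.659) was not called.

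Of 22 HSP90 paralogues and co-chaperones 1 was higher, 1 was lower and 20 did not pass the test, with a median of 0.02. Thus 9.09% were called, against 36.8% of all tested genes. CDC37, which brings kinases to HSP90, rose from 64.2 ± 1.49 to 79.3 ± 1.73 RPKM (mean ± SD, n = 3; log2FC 0.30, limma adjusted p = 0.0138), a call that held in 11 of 14 alternatives and was lost in others, among them those without shRNA-NC replicate 3 or shRNA-UBC9 replicate 2. BAG1, a nucleotide exchange factor of HSP70, fell from 4.70 ± 0.137 to 3.39 ± 0.234 RPKM (mean ± SD, n = 3; log2FC -0.46, limma adjusted p = 0.00641). In TRiC, the cytosolic chaperonin, and prefoldin, 1 of 14 genes was higher and 1 lower (14.3% called, against the same 36.8%). CCT3 fell by 0.30 on the log2 scale (limma adjusted p = 0.0308, lost with any 1 sample left out), and PFDN2 rose by 0.53 (limma adjusted p = 0.00137).

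Of 11 other mitochondrial chaperones and proteases, 2 were higher and 2 lower (36.4% called, against 36.8% of all tested genes). HTRA2, a protease of the intermembrane space, was a DEG, with 9.63, 7.94 and 8.95 RPKM in shRNA-NC and 3.65, 4.07 and 4.52 RPKM in shRNA-UBC9, a log2FC of -1.10 (SE 0.11, limma adjusted p = 0.000345; range under the alternatives -1.17 to -0.95). LONP1, the main protease of the matrix, rose from 14.2 ± 1.09 to 19.5 ± 0.830 RPKM (mean ± SD, n = 3; log2FC 0.45, limma adjusted p = 0.00555).

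Among 11 other heat-inducible HSF1 targets, 5 were higher (45.5%, against 18.8% of all tested genes), none was lower and 6 did not pass the test, with a median of 0.32. ZFAND2A, an adaptor of the proteasome, rose from 4.01 ± 0.166 to 6.02 ± 0.456 RPKM (mean ± SD, n = 3; log2FC 0.57, limma adjusted p = 0.00264). DEDD2, a gene of the apoptotic death effector family, rose from 7.25 ± 0.157 to 9.92 ± 1.26 RPKM (mean ± SD, n = 3; log2FC 0.44, limma adjusted p = 0.0139). SERPINH1 and JMJD6 were also called higher. The 9 chaperone genes described first were not in this list. Among them DNAJB1 and HSPB1 were called lower and none was higher. The co-chaperone BAG3, a target that responds strongly to heat, had 27.0 to 35.4 RPKM in shRNA-NC and 29.4 to 39.5 RPKM in shRNA-UBC9, which overlapped (log2FC 0.16, limma adjusted p = 0.396).

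**Figure D5:**
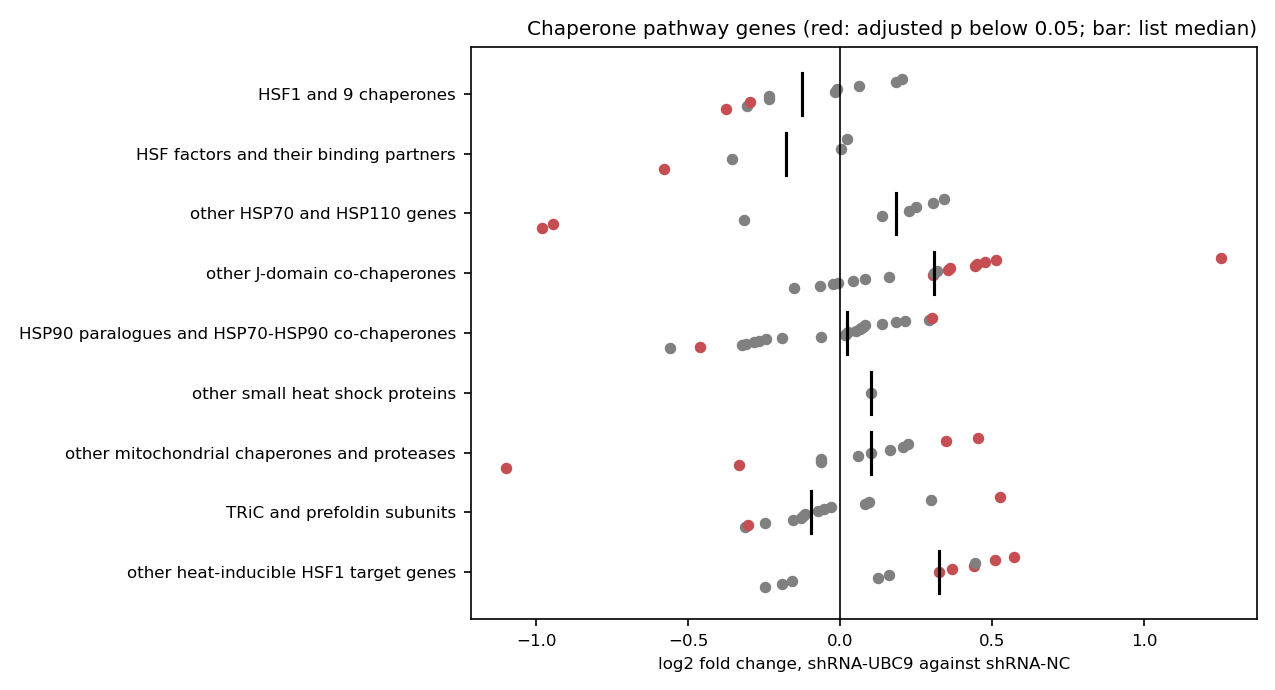
Log2 fold change of shRNA-UBC9 against shRNA-NC (horizontal axis) of each tested gene in HSF1 and the 9 chaperones and in 8 lists of related genes (rows), with red for an adjusted p below 0.05, grey for the rest and a bar at the list median. The calls of the other J-domain co-chaperones and of other heat-inducible HSF1 targets are all to the right of 0. The top row holds 2 calls, DNAJB1 and HSPB1, both to the left. DNAJB1, HSCB and DNAJC19 are J-domain co-chaperones too. DNAJB1 is shown in the top row only, and HSCB (called lower) and DNAJC19 in that of other mitochondrial chaperones and proteases.

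Among the genes that activate SUMO, SAE1, a subunit of the SUMO-activating enzyme, fell from 71.4 ± 2.83 to 50.5 ± 5.34 RPKM (mean ± SD, n = 3; log2FC -0.50, limma adjusted p = 0.00532). UBA2, the other subunit, was also lower (log2FC -0.32, limma adjusted p = 0.0278). SUMO2 was higher (log2FC 0.28, limma adjusted p = 0.0190). SUMO3 (log2FC 0.02, limma adjusted p = 0.878) did not pass the test, and SUMO4 was too low to be tested.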

How the data were processed

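The files hold RPKM per gene for 3 shRNA-NC and 3 shRNA-UBC9 samples, named here by group and replicate. To make these RPKM values the authors removed adaptors and aligned reads to GRCh38 in the CLC Biomedical Genomics Workbench 4. The annotation release, the treatment of reads with several matches and the use of strand are not given in the sources used here. RPKM is scaled to length and to total reads, but not to RNA composition.

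Here log2(RPKM + 0.1) was compared with limma 3.58.1 in R 4.3.3 (intensity trend, no covariate), with Benjamini-Hochberg adjustment over all 12428 genes that reached 0.5 RPKM in 3 or more samples. Fold changes on this scale understate the change of low genes. Depth was read from the commonest step of low values, and set to absolute reads with GENCODE 44 lengths of single-exon genes (6 to 11 genes per sample gave the same depth). Values above 0 were never equal between samples for any gene. Ratios were compared by exact permutation over samples. Named genes were the 10 genes, ratio partners, the 5 genes most alike in profile, marker genes, genes sharing exonic bases and, in each list, the DEGs and the 2 genes of lowest adjusted p. HSPA5, HSBP1, HSCB, DNAJC19, BAG3, CRYAB, SERPINH1, JMJD6, UBA2, SUMO2, SUMO3, SUMO4, HSPA6 and HSPA7 were named, and HSPA1A and HSPA1B were summed, after their values were seen. Genes and lists were chosen with earlier results of these data known. Some results are not reported here. The scripts were tested on simulated data. The alternatives were other pseudocounts, filters and scalings, no trend, a replicate block and each sample left out. Python 3.11.15, numpy 2.4.6, pandas 2.3.3, scipy 1.17.1 and matplotlib 3.10.9 were used.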

Additional observations from a re-analysis of the deposited data

How the results depend on the processing

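Of the 10 genes, 2 were called in the reported fit, 1 (DNAJB1) with no filter on low genes or with no intensity trend, 0 with the replicate block, and 0 to 1 with each sample left out in turn. The count of DEGs among them was 0 in every setting tried, an unadjusted p included. The count of called genes in the chaperone lists was 24 in the reported fit, 15 (10 of them higher, in place of 17) with the replicate block and 12 to 25 with each sample left out. Over all tested genes 24.4% to 33.7% were called with a sample left out. The share was 17.7% with no filter and 34.9% with no intensity trend. Samples of the same number did not deviate together (correlations from -0.367 to 0.0728 over all tested genes), and not every sample correlated best with its own number, so the numbers were not taken to pair the samples. The largest correlation between the groups was 0.526, for shRNA-NC replicate 1 and shRNA-UBC9 replicate 3. These libraries had the fewest genes above 0 (18059 and 18254, against 19002 to 19725). They were also the shallowest (about 29800000 and 28200000 reads, against 33800000 to 36100000). In them alone PTPRC, CD3E and LYZ were all at 0. No block joining these samples was tried, and the cause was not tested. With the block 27.1% of all genes were called in place of 36.8%, and DNAJB1 (limma, adjusted p = 0.0531), HSPB1 (limma, adjusted p = 0.0812), CDC37 (limma, adjusted p = 0.0537) and CCT3 (limma, adjusted p = 0.0600) were not. The sign reversed for HSPA1A under quantile normalization (-0.00727), and with a sample left out for HSPA1A (-0.0901 to 0.217), HSPA1B (-0.214 to 0.222), HSPE1 (-0.137 to 0.126) and the HSPA1A/HSPA1B ratio (-0.00521 to 0.138), all on the log2 scale. HSP90AB1 reversed under median scaling (-0.0171) and with a sample left out (-0.0157 to 0.0800).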

Other observations

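HSPA6, which encodes an HSP70 protein made almost only under stress, was too low for the test and was noticed after its values were seen. It had 0.113, 0.0974 and 0.0997 RPKM in shRNA-NC and 0.433, 0.443 and 0.448 RPKM in shRNA-UBC9. All 3 shRNA-UBC9 samples were above all 3 shRNA-NC samples, and the mean was 4.27 times higher. With no filter on low genes its log2 fold change was 1.41 (SE 0.17, limma adjusted p = 0.00338). The lowest value rested on 3.37 reads per kilobase, so single reads weigh heavily in it. Its close copy HSPA7 was listed at 0 in all 6 samples.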
